A study of Homo sapiens with 4 samples.

Results

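The genes described here are the zinc finger genes whose symbol is ZNF followed by a number. Of 514 such genes in the count table, 126 had at least 30 counts summed over the 4 libraries and are the members described below. A further 284 had 1 to 29 counts and 104 had none, so the members are the better counted part of the family and not all of it. Just inside that limit were ZNF142, ZNF273 and ZNF274 with 30 counts each, and just outside it were ZNF16 and ZNF704 with 29 each and ZNF131 with 28. The same minimum left 7527 of the 19948 protein-coding genes in the table, which are called all tested genes and include the members.

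The libraries came from 1 established cell line, HEK293T, which derives from human embryonic kidney. Cultures were given cycloheximide, which halts ribosomes on the mRNA, at 100 ug/mL for 10 min, and the lysate was spread over a sucrose gradient from 10% to 50%, so every pool shares that treatment. The gradient was collected as a free pool without assembled ribosomes, a monosome pool, a light polysome pool and a heavy polysome pool. From each pool, capped RNA was captured on beads with a mutant eIF4E, which binds the cap, and polyadenylated RNA was read directly by nanopore sequencing. The libraries held 355509 counts for the free pool, 1329334 for the monosome pool, 1499401 for the light polysome pool and 1564531 for the heavy polysome pool. With 1 library for each pool there was no replicate spread to test against, and the 95% intervals below are exact binomial ones (Clopper-Pearson) that cover counting error only. Of the genes set beforehand as markers of HEK293T cells, VIM had 850 counts, NEFL 218, NEFM 40 and CDH2 26. The kidney development genes PAX2 and LHX1, on the same list, had only 6 and 2. Of the markers of other cells, PTPRC of blood cells, ALB of liver and INS of the pancreatic islet had 0. Of the other markers of other cells, EPCAM of epithelia had 6, HBB of red cells 4, all in the free library, and COL1A1 of fibroblasts 2.

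The C2H2 zinc finger is a short fold in which a pair of cysteines and a pair of histidines hold a zinc ion, and most ZNF proteins carry such fingers in tandem arrays that read DNA. Many also carry a KRAB domain, which recruits the co-repressor TRIM28 and with it enzymes that lay down repressive chromatin, often over transposable elements. A minority of the family works elsewhere, on RNA, on the mitotic spindle or on the ribosome itself. The number of ribosomes an mRNA carries depends on how often translation starts, how fast ribosomes move and how long the coding region is, and the gradient sorts mRNAs by that number.

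The finger is written in the mRNA as a near-constant spacing of its 4 zinc-binding codons, and 5 of these fingers are shown because the members were grouped below by how many of them their protein holds. The sequences are from GENCODE 29 transcripts on GRCh38 and read 5′ to 3′ on the coding strand, which is the minus strand for ZNF768 and ZNF689 and the plus strand for ZNF207. Capitals mark the codons of the cysteines and histidines. ZNF768, which holds 10 fingers and no KRAB pattern, and ZNF689, which holds 10 fingers and the KRAB pattern, lie near each other on chromosome 16. ZNF207 on chromosome 17 holds 1 finger that fits the pattern searched, and the codons of that finger run across an intron. Fingers were counted by a set range of spacings, so a protein may hold fingers beyond those counted.
ZNF768 finger 1 (chr16:30525291-30525353): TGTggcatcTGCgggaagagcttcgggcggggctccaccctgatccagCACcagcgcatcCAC
ZNF768 finger 2 (chr16:30525207-30525269): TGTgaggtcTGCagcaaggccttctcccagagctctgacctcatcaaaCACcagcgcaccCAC
ZNF689 finger 1 (chr16:30605170-30605232): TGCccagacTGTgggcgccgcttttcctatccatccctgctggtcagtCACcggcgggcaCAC
ZNF689 finger 2 (chr16:30605086-30605148): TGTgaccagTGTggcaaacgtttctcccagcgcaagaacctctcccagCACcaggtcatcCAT
ZNF207 finger 1 (chr17:32351853-32358508): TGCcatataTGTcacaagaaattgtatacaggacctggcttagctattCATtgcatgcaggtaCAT

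Members were low in count. Their median was 68 counts over the 4 libraries against 126 for all tested genes, 41 members had 100 or more, and 63 of the 126 had no count in the free library. ZNF446 was the 1 member with no count in the monosome library. In the free library a count of 0 allowed a level of up to 8.44 CPM (each count divided by the library total and scaled to 1000000 counts), against 2.26 CPM in the monosome library, 2.00 in the light and 1.92 in the heavy polysome library, where the limit is 3 counts in each case. Because CPM is a share of a library, less mRNA of a gene in a pool and more of other RNA there cannot be told apart.

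Most members had their highest CPM in the light polysome library, whereas most tested genes had it in the heavy polysome library. The highest CPM of a member lay in the light polysome library for 67 of the 126 (53.2%), in the heavy polysome library for 46 (36.5%), in the monosome library for 11 and in the free library for 2. Of all tested genes, 30.0% had their highest CPM in the light and 61.3% in the heavy polysome library. When each gene's CPM was summed over the 4 libraries, the median member had 0.354% of that sum in the free, 15.3% in the monosome, 41.5% in the light and 35.3% in the heavy polysome library. The corresponding medians of all tested genes were 4.02%, 13.8%, 29.7% and 47.7%. On a scale from 0 for free to 3 for heavy polysome, weighted by these shares, the median member stood at 2.14 and the median tested gene at 2.25. Members whose exons overlap an exon of another protein-coding gene numbered 29, of which 86.2% were highest in the light library. Of the other 97 members, 43.3% were highest in the light library and 44.3% in the heavy one. Whether reads of the overlapping genes entered the counts was not tested, and the sources used here do not give the use of strand.

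**Figure D1:**
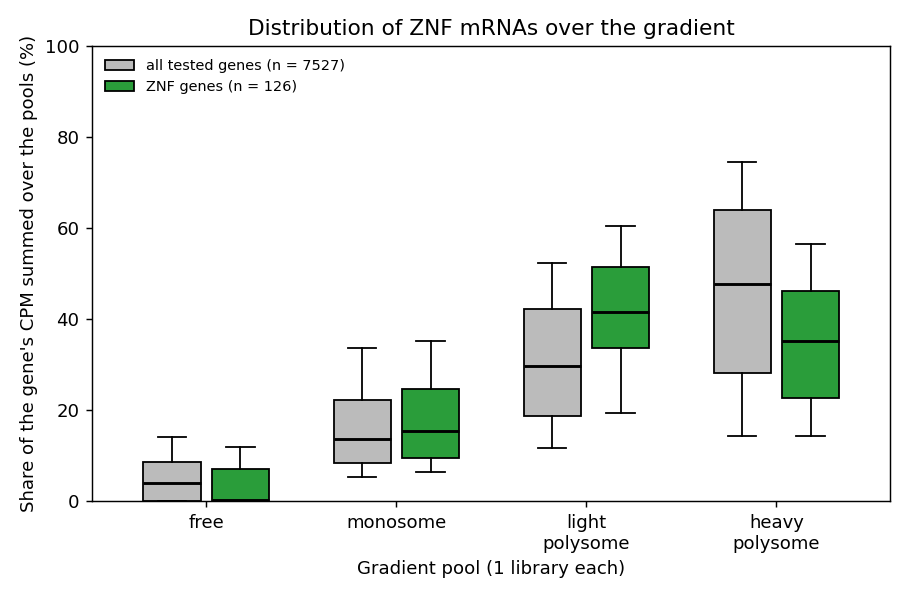
Share of each gene's CPM, summed over the 4 libraries, that lay in each pool, in percent, for the 126 ZNF genes (green) and all 7527 tested genes (grey). Boxes span the quartiles with the median as a line, and whiskers reach the outer deciles over genes. The ZNF median is above that of all tested genes in the light polysome pool (41.5% against 29.7%) and below it in the heavy polysome pool (35.3% against 47.7%).

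Between heavy and light polysomes, most members leaned to the light pool. The values that follow are log2 ratios of library shares, after adding 0.5 to each count, minus the median over all tested genes, so that 0 is the median tested gene, which had a share 1.51 times as large in the heavy as in the light library. The median member stood at -0.89 (quartiles -1.73 and -0.23), and 24 of the 126 stood above 0. To be counted on either side, a gene had to lie 2-fold or more from the median gene with an interval that excluded it. By this rule 7 members were higher in the heavy library, where 26% of all tested genes were, and 58 were lower, where 28.3% of all tested genes were. On library shares with no centring, 15 members were higher and 37 lower, where 2958 and 1349 of the 7527 tested genes were, with a median member at -0.30 against 0.59 for all tested genes.

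The 7 members on the heavy side were ZNF207, ZNF330, ZNF24, ZNF22, ZNF326, ZNF622 and ZNF770, and none of them held the KRAB pattern. ZNF207, which binds the checkpoint protein BUB3 and takes part in spindle assembly, had 7 counts in the free, 50 in the monosome, 79 in the light and 416 in the heavy polysome library. Its CPM of 266 in the heavy library was the highest of its 4 levels by a wide margin, and its relative log2 ratio of heavy to light was 1.74 (95% interval 1.39 to 2.11). ZNF24, a factor with a SCAN domain in front of its fingers, had 0, 27, 16 and 145 counts in the same order. Its ratio of 2.49 (1.78 to 3.37) was the highest among the members. Its light polysome CPM of 10.7 was, as measured, below its monosome CPM of 20.3. ZNF326, a subunit of the DBIRD complex that couples RNA polymerase II elongation to splicing, had 0, 13, 7 and 64 counts and a ratio of 2.45 (1.42 to 3.91). ZNF330, a nucleolar protein with no C2H2 pattern, had 1, 35, 39 and 135 counts and a ratio of 1.13 (0.62 to 1.69). ZNF22 had 3, 22, 19 and 62 counts, with a ratio of 1.03 (0.29 to 1.88). ZNF770, with 10 fingers, had only 2, 13, 4 and 32 counts, so its ratio of 2.20 has an interval from 0.85 to 4.31. ZNF622, with 0, 5, 11 and 64 counts, is described with the ribosome factors. All 7 had their highest CPM in the heavy polysome library, as did 61.3% of all tested genes. That the heavy level exceeded the light one followed from how these 7 were picked. In ZNF24, ZNF326, ZNF22 and ZNF770 the light level as measured lay below the monosome level. In ZNF330 it was close to it (26.0 and 26.3 CPM). Only for ZNF770 did the counting interval exclude equal light and monosome levels, so for ZNF24, ZNF326 and ZNF22 the order is not settled. The light counts by which these genes were picked enter that comparison too.

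On the light side, ZNF706 was the most counted strong case. It encodes a small protein of 76 residues with 1 finger, and its CPM was 50.6 in the free, 80.5 in the monosome, 188 in the light and 43.5 in the heavy polysome library. The heavy level was thus the lowest of the 4 as measured, but the free level rests on 18 counts, too few to order it against the heavy one. The ratio of heavy to light was -2.70 (-3.11 to -2.32). ZNF32 had 2, 42, 103 and 30 counts and a ratio of -2.41 (-3.07 to -1.83). ZNF414 had 2, 37, 173 and 63 counts and a ratio of -2.10 (-2.55 to -1.69). ZNF358, which shares exonic sequence with an overlapping gene on the same strand, had 6, 67, 103 and 39 counts and a ratio of -2.04 (-2.62 to -1.51). ZNF592, a long member with a coding region of 3801 nt, had 1, 15, 75 and 29 counts and a ratio of -2.01 (-2.69 to -1.39), so the light side was not made of short mRNAs alone. ZNF576, with 2, 19, 49 and 8 counts, had the lowest ratio among members with 1 to 4 fingers at -3.19 (-4.56 to -2.18), and one of its exons overlaps SRRM5 on the same strand. ZNF717, with 18 fingers, had the lowest ratio of the members without the KRAB pattern, -3.40 (-5.97 to -1.86), on 0, 11, 23 and 3 counts.

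**Figure D2:**
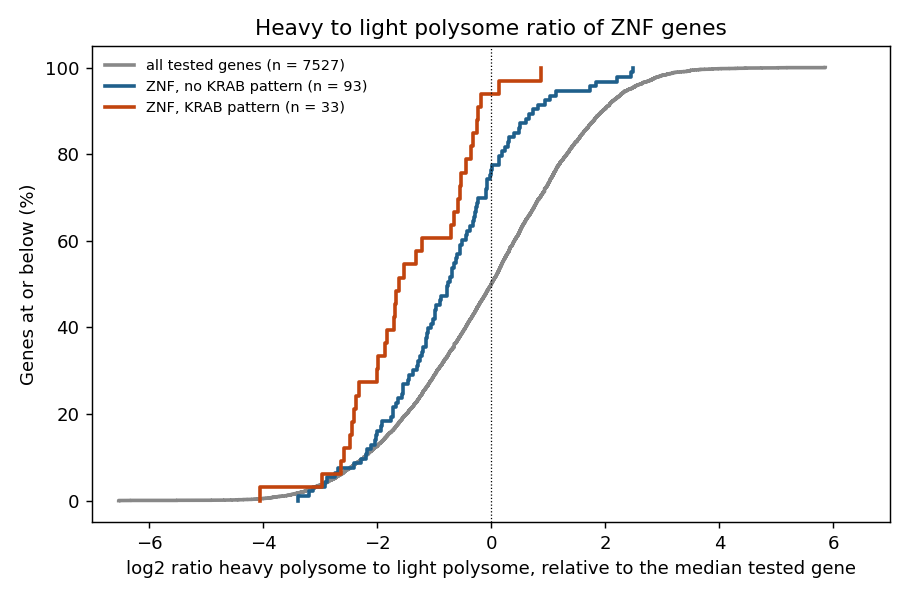
Cumulative share of genes (y axis, percent) by log2 ratio of heavy to light polysome relative to the median tested gene (x axis), for all 7527 tested genes (grey), the 93 ZNF genes without the KRAB pattern (blue) and the 33 with it (red). Both ZNF curves lie to the left of the grey one around 0, and the red curve lies farther left, with a median of -1.61 against -0.75.

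The members were also split by what their proteins carry. Those with a KRAB pattern had lower ratios of heavy to light polysome than the rest. The KRAB pattern, the letters L, Y and V-M of the A-box core at fixed distances, was found in the translated coding region of 33 members, and a protein without this pattern may still hold a KRAB domain. The median ratio of heavy to light of these 33 was -1.61, with 2 of them above 0, 0 counted as higher and 20 (60.6%) as lower. ZNF90 and ZNF525, described further on, are among the 33 and both were lower. The 93 members without the pattern had a median of -0.75, with 22 above 0, 7 higher (7.53%) and 38 lower (40.9%). Of all tested genes, 26% were higher and 28.3% lower. The lower ratio with the pattern went with a smaller heavy share and not with a larger light one. The median light share of a gene's summed CPM was 39.1% with and 42.6% without the pattern. The median heavy shares were 25.6% and 38.2%, and the median monosome shares 17.7% and 14.9%. No test of the difference between the groups was made, since members are not replicates. Of the 33, 13 lie on chromosome 19, where many KRAB genes are clustered, and had a median of -1.53, against -1.64 for the 20 elsewhere. Without the KRAB pattern the medians were -0.97 for 21 members on chromosome 19 and -0.69 for 72 elsewhere.

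Among the KRAB members, ZNF689 had 0 counts in the free, 21 in the monosome, 142 in the light and 61 in the heavy polysome library, and a ratio of heavy to light of -1.86 (-2.33 to -1.43). ZNF74 had 1, 8, 96 and 46 counts and a ratio of -1.71 (-2.25 to -1.19). Both are thus far higher in the light pool than in the monosome pool and lower again, as a share, in the heavy pool. ZNF589 was the highest of the 33 at 0.88 (0.09 to 1.79), with 0, 8, 17 and 50 counts. ZNF274, which brings the histone methyltransferase SETDB1 to the 3' ends of ZNF genes, had 0, 6, 10 and 14 counts, too few to place it, with a ratio of -0.19 (-1.44 to 1.17). Several KRAB genes known for silencing retrotransposons or guarding imprinted loci fell under the minimum: ZNF91 had 3 counts in all, ZNF93 had 0 and ZNF445 had 12.

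By number of fingers, the median ratio of heavy to light was -0.20 for the 6 members with no C2H2 pattern, -0.57 for 34 with 1 to 4, -0.99 for 45 with 5 to 9 and -1.19 for 41 with 10 or more. The counts at least 2-fold lower were 2 of 6 (33.3%), 12 of 34 (35.3%), 21 of 45 (46.7%) and 23 of 41 (56.1%), of which the first pair lies near the 28.3% of all tested genes. The medians were thus lower for longer arrays, and 4 of the 7 heavy-side members had 1 to 4 fingers. The share of members above 0 did not follow that order throughout, at 33.3%, 35.3%, 6.67% and 17.1%. Over the 126 members the Spearman correlation of the ratio with the number of fingers was -0.24. Within the 33 members with the KRAB pattern it was -0.27, and within the 93 without it -0.18. These values are a description, since the members share the same libraries. The number of fingers also rises with coding length (Spearman correlation 0.53).

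The ratio went with coding length over all tested genes but hardly over the members. Over the 7515 tested genes with a coding length, the Spearman correlation of the heavy to light ratio with coding length was 0.32, and over the 126 members it was 0.01. For coding regions under 600 nt the median ratio was -1.45 for 8 members and -1.63 for all tested genes. From 600 to under 1200 nt the medians were -0.78 for 26 members and 0.05 for all tested genes. From 1200 to under 1800 nt, where tested genes stood highest, 47 members had a median of -0.71 and tested genes of 0.63. From 1800 to under 2400 nt the medians were -0.95 for 24 members and 0.52, and from 2400 nt they were -0.97 for 21 members and 0.09. The shortest members thus stood near other short genes, and the gap opened from 600 nt upwards. With the median tested gene of the same length bin as reference, the median member stood at -1.20.

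**Figure D3:**
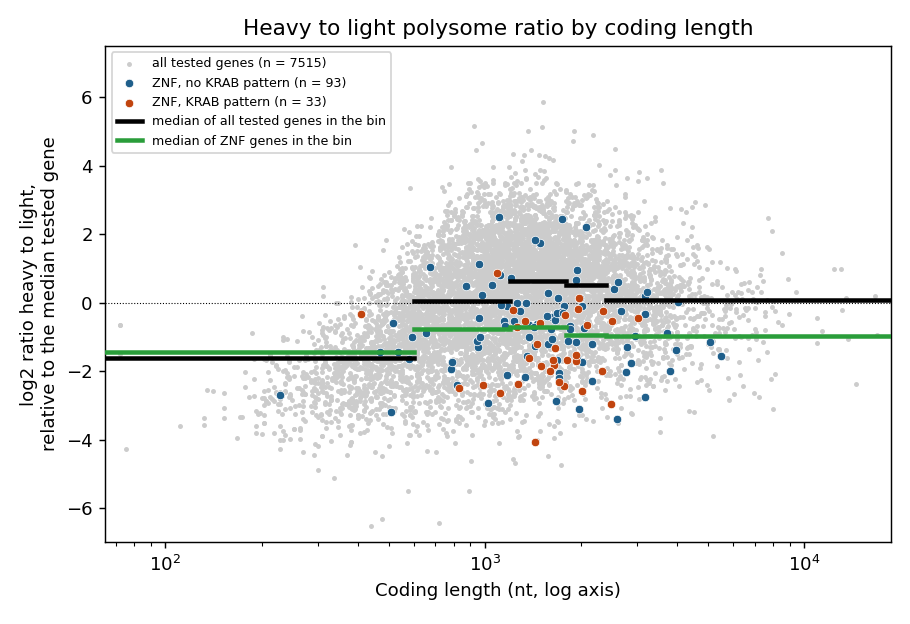
Log2 ratio of heavy to light polysome relative to the median tested gene (y axis) against coding length in nt (x axis, log scale), with 1 point per gene. Grey points are the 7515 tested genes with a coding length, blue and red points the ZNF genes without and with the KRAB pattern, and bars the medians of all tested genes (black) and of ZNF genes (green) in each length bin. The green bars stay between -1.45 and -0.71 while the black ones run from -1.63 to 0.63.

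The lean to light polysomes was also read against the number of counts. Members with 30 to 99 counts numbered 85 and had a median ratio of -1.02, where tested genes of that depth had 0.17. The 30 members with 100 to under 300 counts had -0.67 against 0.09. The 11 members with 300 or more counts had -0.55, close to the -0.54 of tested genes as deeply counted. Members with an exon overlap had a median of -1.22 and those without one -0.65. The median was below 0 in each of these groups and nearer to 0 in the members with more counts or without an overlap. Among the most counted members it did not stand apart from equally counted genes, but the 2 sets were not matched for coding length. The median coding length was 1491 nt for these 11 members and 813 nt for the tested genes with 300 or more counts.

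From monosome to light polysome, members differed widely in both directions. The median member had a relative log2 ratio of 0.43, with 79 of 126 above the median gene, whose share was 1.98 times as large in the light library. By the rule above, 26 members (20.6%) were higher in the light library, where 14.9% of all tested genes were, and 20 (15.9%) were lower, where 16.3% were. With no centring, 73 members were higher and 4 lower, where 3310 and 278 of the 7527 tested genes were. The direction of the median rested on the minimum of counts, since with a minimum of 10 summed counts it was -0.027.

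ZNF428 had 1, 30, 306 and 262 counts, which is 22.6 CPM in the monosome and 204 CPM in the light library, and a ratio of light to monosome of 2.17 (1.65 to 2.78). One of its exons overlaps SRRM5 on the opposite strand. ZNF74 had a ratio of 2.35 (1.39 to 3.68), ZNF787 of 1.92 (1.26 to 2.72) on 19 monosome and 164 light counts, and ZNF689 of 1.57 (0.93 to 2.34). In these 4 genes the monosome pool held little of the mRNA, at most 22.6 CPM. On the other side stood ZNF146, made almost wholly of fingers, with 38 monosome and 18 light counts and a ratio of -2.21 (-3.13 to -1.39), and ZNF24 with -1.90 (-2.90 to -0.97). ZNF146 overlaps an exon of ZNF565 on the opposite strand.

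Members with many counts after ZNF90 showed how mixed the profiles were. ZNF703, a corepressor of the NET family amplified in breast cancer, had 33.8 CPM in the free, 132 in the monosome, 302 in the light and 430 in the heavy library. Its relative ratio of heavy to light was -0.08 (-0.26 to 0.09), so it moved with the median gene. ZNF503, of the same NET family, had 2.81, 15.8, 57.4 and 167 CPM and a ratio of 0.94 (0.59 to 1.32), just under the 2-fold limit. ZNF768, which binds an old class of interspersed repeats, had 2.81, 31.6, 110 and 124 CPM and a ratio of -0.42 (-0.73 to -0.11). ZNF664 had 11.3, 73.0, 133 and 52.4 CPM and a ratio of -1.93 (-2.32 to -1.55), and it shares exonic sequence with overlapping genes on its strand. ZNF444, with a SCAN domain, had 5, 23, 76 and 141 counts and a ratio of 0.24 (-0.17 to 0.66), and ZNF771 had 8, 52, 136 and 87 counts and a ratio of -1.29 (-1.70 to -0.90). ZNF787 had 11.3, 14.3, 109 and 112 CPM and a ratio of -0.55 (-0.87 to -0.23). The neighbours in this list therefore peaked in different pools, ZNF664 and ZNF706 in the light one and ZNF703, ZNF503, ZNF768 and ZNF787 in the heavy one, although for ZNF768 and ZNF787 the light and heavy levels were close.

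**Figure D4:**
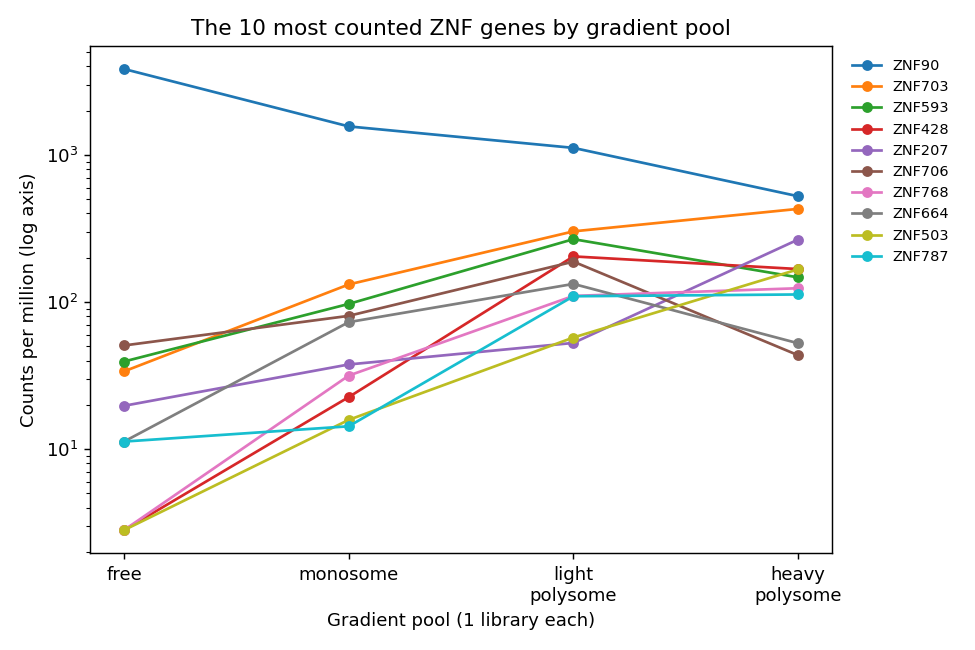
CPM (y axis, log scale) of the 10 most counted ZNF genes in the free, monosome, light polysome and heavy polysome libraries (x axis), with 1 library per point. ZNF90 is highest in the free pool at 3837 CPM and lower in each pool after it, whereas the other 9 genes are lower in the free pool than in the light polysome pool.

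Members that work on the ribosome did not share 1 profile. ZNF593, the human counterpart of a yeast factor that exports pre-60S particles, had 39.4, 97.0, 267 and 147 CPM from free to heavy. Its level was highest in the light library and its ratio of heavy to light was -1.45 (-1.69 to -1.22), and its 468 nt coding region is among the short ones. ZNF622, the counterpart of a yeast factor that matures the 60S subunit in the cytoplasm, had 0, 5, 11 and 64 counts and a ratio of 1.84 (0.95 to 2.96). ZNF598, the ubiquitin ligase that recognises collided ribosomes, had 2, 20, 95 and 197 counts and a ratio of 0.40 (0.04 to 0.77). ZNF622 and ZNF598 were thus highest in heavy polysomes and ZNF593 in light ones.

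Members known to act on RNA or in splicing lay on both sides of the median gene. ZNF207 and ZNF326 are described above. ZNF830, a protein of the spliceosome, had 1, 17, 16 and 45 counts and a ratio of 0.81 (-0.01 to 1.76). ZNF346, which binds double-stranded RNA, had 2, 14, 78 and 90 counts and a ratio of -0.45 (-0.90 to 0.01). ZNF385A had 1, 6, 39 and 38 counts and a ratio of -0.69 (-1.37 to -0.01), on the light side but under the 2-fold limit. ZNF638, which also binds RNA, had 17 counts in all, and the promoter-binding ZNF143 had 25, ZNF148 22, ZNF281 25 and ZNF217 7, so none of these was a member.

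Between heavy polysome and monosome, the median member stood at -0.64 relative to a median gene whose share was 3.34 times as large in the heavy library. Of the members 11 were higher, where 21% of all tested genes were, and 47 were lower, where 27% were. With no centring 63 members were higher and 13 lower, where 4878 and 741 of the 7527 tested genes were, and the median member stood at 1.11 against 1.74 for all tested genes. ZNF503 had the highest ratio among members with at least 100 counts in the pair, 1.63 (1.02 to 2.38), on 21 monosome and 261 heavy counts. ZNF598 had 1.29 (0.66 to 2.07), ZNF428 1.13 (0.60 to 1.75) and ZNF207 1.07 (0.66 to 1.53). At the other end were ZNF90, described further on, with -3.32 (-3.44 to -3.20), ZNF358 with -2.75 (-3.37 to -2.17), ZNF706 with -2.63 (-3.09 to -2.18) and ZNF664 with -2.22 (-2.66 to -1.78). The comparisons of heavy with light, heavy with monosome and light with monosome share libraries, so their values for a gene are not independent. With the members' counts summed, which gives most weight to the most counted genes, the value was 0.47, above that of all tested genes summed.

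Against the free library few members could be told from the median gene. Between monosome and free, 1 member, ZNF664, was higher, where 5.13% of all tested genes were, and 3 were lower, where 4.57% were, namely ZNF90, ZNF525 and ZNF672. ZNF672, which is named after its values were seen, had 3 counts in each of these libraries, 75 in the light and 40 in the heavy library, and a relative ratio of monosome to free of -3.17 (-6.07 to -0.27). The median member stood at 0.29, and when the genes without a count were set to the floor of 3 counts it stood at -0.29. With no centring 22 members were higher and 2 lower, where 2048 and 60 of the 7527 tested genes were. Between heavy polysome and free, 3 members were higher (ZNF428, ZNF503 and ZNF24), where 6.36% of all tested genes were, and 12 were lower, where 15.3% were, with a median member of -0.54. Here TMM scaling gave 8 higher and 8 lower, where 931 and 943 of the 7527 tested genes were. DESeq2 size factors gave 4 and 10, where 795 and 992 of the tested genes were. Shares with no centring gave 65 and 2, where 5458 and 227 of the tested genes were. The median member was then at 2.51 against 3.05 for all tested genes. ZNF24 had no count in the free library, and its share in the heavy library was at least 11-fold that of 3 counts in the free library. The median tested gene had a share 8.26 times as large in the heavy as in the free library. Relative to that gene, the lower bound for ZNF24 was 0.095 on the log2 scale. ZNF706 had -3.30 (-4.03 to -2.43) and ZNF593 -1.19 (-1.92 to -0.25), so the free pool held relatively more of these short mRNAs than of the median gene.

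ZNF90 stood apart from every other member. It had 1364 counts in the free, 2077 in the monosome, 1673 in the light and 819 in the heavy polysome library, which is 3837, 1562, 1116 and 524 CPM. It alone made up 86.8% of all member counts in the free library, 47.8% in the monosome, 20.9% in the light and 11.7% in the heavy library. ZNF525 was the only other member highest in the free library, with 39, 11, 26 and 2 counts or 110, 8.28, 17.3 and 1.28 CPM.

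Both genes hold, in annotated exons outside any coding region, a stretch that resembles the coding sequence of a ribosomal protein. In ZNF90 the stretch at chr19:20125044-20125481 (GRCh38, plus strand) aligns with all 438 nt of the coding sequence of RPS16, a protein of the small ribosomal subunit, with 22 bases that differ. In ZNF525 the stretch at chr19:53386236-53386385, in its untranslated region, aligns with 150 of the 153 nt of RPL39, a protein of the large subunit, with 9 that differ. They were the 2 members for which a search of the transcripts against 79 ribosomal protein genes found an alignment of at least 120 nt. Per annotation, the ZNF90 exon belongs to a transcript of the nonsense-mediated decay class and to a processed transcript.

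The 2 genes can be set beside the ribosomal protein genes they resemble. RPS16 had 2776, 12411, 9093 and 4568 counts, and ZNF90 amounted to 49.1% (46.0 to 52.4) of it in the free library, 16.7% (16.0 to 17.5) in the monosome, 18.4% (17.5 to 19.4) in the light and 17.9% (16.6 to 19.3) in the heavy polysome library. From monosome to heavy polysome ZNF90 thus stayed near the same proportion of RPS16, with ratios of heavy to light of -1.68 for ZNF90 and -1.65 for RPS16. In the free library the proportion was far higher. RPL39 had 2150, 10744, 9739 and 1483 counts, and ZNF525 amounted to 1.81% (1.29 to 2.49) of it in the free, 0.102% (0.0511 to 0.183) in the monosome, 0.267% (0.174 to 0.391) in the light and 0.135% (0.0163 to 0.488) in the heavy library. Whether reads of RPS16 and RPL39 entered the counts of ZNF90 and ZNF525 was not tested.

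**Figure D5:**
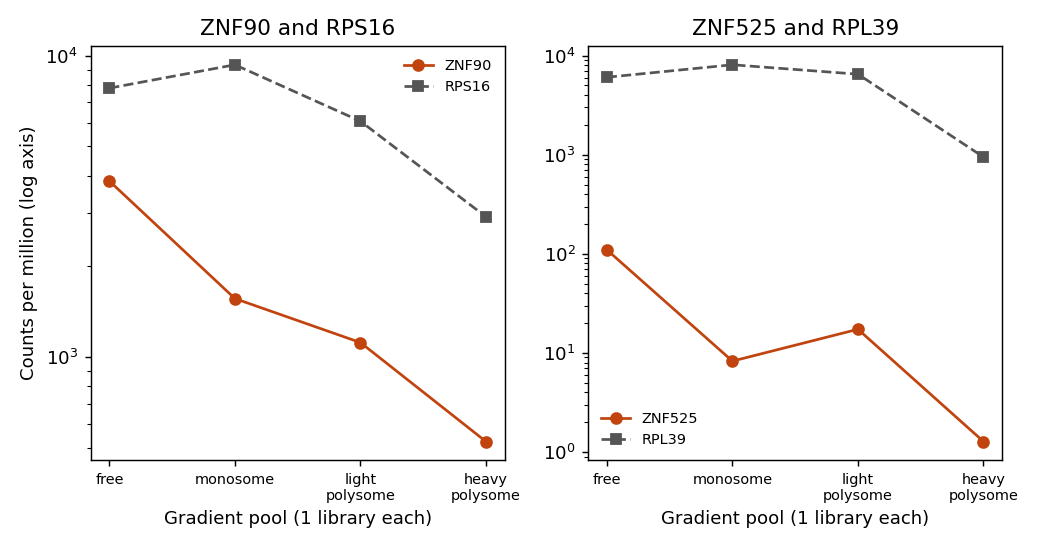
CPM (y axes, log scale) by gradient pool (x axes) of ZNF90 with RPS16 (left) and of ZNF525 with RPL39 (right), with 1 library per point. ZNF90 runs below RPS16 by a near-constant distance from monosome to heavy polysome and comes closer to it in the free pool, at 3837 against 7809 CPM.

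ZNF90 weighed most on the members' share of the free library and much less on that of the polysome libraries. With all 126 members the share was 0.442% (0.420 to 0.464) of the free, 0.327% (0.317 to 0.337) of the monosome, 0.535% (0.523 to 0.547) of the light and 0.448% (0.438 to 0.459) of the heavy polysome library. Without ZNF90 and ZNF525 it was 0.0473% (0.0404 to 0.0550), 0.170% (0.163 to 0.177), 0.421% (0.411 to 0.432) and 0.396% (0.386 to 0.406). The free library thus went from above the monosome library to the lowest of the 4. Of the remaining 124 members, the 31 with the KRAB pattern made up 0.00591%, 0.0299%, 0.0696% and 0.0478% from free to heavy, and the 93 without it 0.0414%, 0.140%, 0.352% and 0.348%. Without these 2 genes the KRAB members peaked in the light pool, and the others had light and heavy shares whose intervals overlap (0.343 to 0.362 and 0.339 to 0.358).

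The partners through which KRAB proteins act had a median on the heavy side of 0, and no test of a difference from the members was made. Of 33 co-repressor symbols taken from general knowledge of the pathway, 28 were tested, and their median ratio of heavy to light was 0.39, with 9 higher (32.1%, against 26% of all tested genes) and 3 lower (10.7%, against 28.3%). Their median coding length was 1842 nt. Tested genes from 1800 to under 2400 nt had a median ratio of 0.52, so the partners did not exceed genes of that length. TRIM28, which binds the KRAB domain, had 3, 62, 129 and 412 counts and a ratio of 1.02. Of the deacetylase complex it recruits, HDAC1 had a ratio of 1.94, HDAC2 of 2.97, RBBP4 of 2.26, RBBP7 of 2.21 and MTA2 of 1.84. The other tested subunits of that complex were mixed, and apart from MBD2 none of them passed the rule: GATAD2B had 0.52, MTA3 0.51, CHD3 0.11, MBD3 -0.45, GATAD2A -0.76 and MTA1 -0.95. The demethylase KDM1A had 2.26. SETDB1, the methyltransferase of the pathway, had only 41 counts and a ratio of 0.27, which did not pass the rule. The 3 on the light side were SUMO2 with -2.30, MBD2 with -1.41 and EHMT2 with -1.01.

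Other families give the scale of the members' value, and their counts can be read against the 26% of all tested genes that were higher and the 28.3% that were lower. The median ratio of heavy to light was -0.41 for 32 genes of other C2H2 symbol families (ZBTB, ZSCAN, ZKSCAN, ZFP and ZIC), with 2 higher (6.25%) and 5 lower (15.6%). For 101 other transcription factors it was -0.08, with 15 higher (14.9%) and 28 lower (27.7%), and for 51 subunits of RNA polymerases and Mediator it was -0.26, with 8 higher (15.7%) and 17 lower (33.3%). Helicases of the DEAD and DEAH box lay on the other side, with 0.96 over 36 genes, 18 higher (50.0%) and 1 lower (2.78%), and 9 genes of the ZC3H symbol group of RNA-binding zinc fingers had 0.45. In this set the ZNF members had the lowest median, and no test of the difference between lists was made.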

How the data were processed

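The study measured capped, polyadenylated RNA in 4 pools of a polysome gradient of HEK293T cells, with 1 library per pool. The authors deposited raw counts per gene, whole numbers without scaling. The submitters' processing notes list the hg38 build, the aligner minimap2 2.15 and the counter featureCounts of Subread 1.6.2. Not given in the sources used here are the annotation release and the treatment of strand and of reads that align to several places, so values of overlapping or near-identical genes are uncertain. Depth ran from 355509 to 1564531 counts, and the free library is the least precise.

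Genes with 30 or more summed counts were kept. Shares were compared after adding 0.5 to each count, relative to the median tested gene, with exact binomial intervals at 95% for counting error. A gene was counted as higher or lower at 2-fold or more with an interval that excluded the median gene. No replicate test could be fitted. Coordinates, coding lengths and finger and KRAB patterns came from GENCODE 29 transcripts, which all 126 members matched and which may not be the release the authors used. Stretches like ribosomal protein coding sequences were found with BLAST 2.17.0. Scaling alternatives used edgeR 4.0.16 and DESeq2 1.42.0 for size factors only, and Python 3.11.15 did the rest, tested on simulated data. The genes named were the 10 most counted, the 5 highest and lowest ratios of each comparison among members with 100 or more counts in the pair, members with a known role, and the extremes of each subgroup. From these, the text gives the ones that carry a result. The members, lists and rules were chosen with earlier results of these data known, and the alternatives without ribosomal-protein-like or exon-overlapping members were added after seeing the data.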

Additional observations from a re-analysis of the deposited data

How the results depend on the processing

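Median ratio of heavy to light polysome: below 0 under all 10 alternatives run, from -1.20 to -0.25. It was -0.46 at a minimum of 100 counts, -0.56 with no minimum and -0.25 from summed counts. The median of light to monosome was -0.027 at a minimum of 10, -0.28 with no minimum, 0.081 with libraries thinned to the shallowest and 0.72 from sums. The other medians turned from sums to 0.47 (heavy to monosome), -0.43 (monosome to free) and 0.041 (heavy to free). Monosome to free was also -0.16 with no minimum and -0.29 with zeros at the floor, and heavy to free was -0.007 at a minimum of 100. The cause of these turns was not tested.

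Counts of members higher and lower, with no centring, were 15 and 37 (heavy to light), 73 and 4 (light to monosome), 63 and 13 (heavy to monosome), 22 higher (monosome to free) and 65 and 2 (heavy to free). Thinned libraries gave 4 and 33, 12 and 9, and 2 and 26 for the first 3 of these comparisons. A minimum of 100, which leaves 41 members, gave 15 lower for heavy to light, 10 and 7 for light to monosome, 16 lower for heavy to monosome and 0 higher for monosome to free. A minimum of 10 gave 36 lower for light to monosome, 78 lower for heavy to monosome and 5 higher for heavy to free, where TMM gave 8 higher. Without ZNF90 and ZNF525, 1 member was lower for monosome to free. The counts over all tested genes were not computed for thinned libraries or for minimums of 10 and 100. Those member counts have no share of all genes beside them, so they are no result about the members. A minimum of 10 also takes in more members.

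The members' share of the free, monosome, light and heavy libraries was 1.26%, 0.722%, 0.781% and 0.554% with ribosomal protein genes left out of the totals, 0.419%, 0.263%, 0.396% and 0.335% for members with 100 or more counts, and 0.0473%, 0.170%, 0.421% and 0.396% without ZNF90 and ZNF525. Over all ZNF rows it was 0.383%, 0.603% and 0.522% from monosome to heavy. The median position was 2.22 without the free library and 2.22 at a minimum of 100. The Spearman correlation of the heavy to light ratio was -0.24 with the number of fingers in place of coding length. No paired analysis was possible because each pool has 1 library. Of 151 recomputed values, 8 changed direction and a further 48 moved beyond the range set around the main value. Counts of members and library shares are among the 151 and could not change direction. Of the 8, 1 was the correlation with the number of fingers in place of coding length. Depth limits the free library most, where 63 members have no count.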
